A study of Mus musculus with 20 samples.

Results

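Histone genes were examined in bulk RNA-seq of murine bone marrow-derived dendritic cells (BMDCs). The group was defined by gene symbol as every gene whose name begins with Hist1 to Hist4, H1f, H2af or H3f, which gave 84 of the 24421 genes in the count table. Of these, 68 were clustered Hist genes and 16 were variant genes (H1f, H2af and H3f), and 76 of the 84 (67 clustered and 9 variant) had enough counts to be tested. The 8 that did not were Hist1h2aa, H1fnt, H1foo, H2afb1, H2afb2, H2afb3, H2afy2 and H2afy3, and H1fnt and the 3 H2afb genes had no count in any library. Wild-type C57BL/6 bone marrow from 5 mice (A to E, age not given in the sources used here) was cultured for 8 days with GM-CSF at 40 ng/mL, a factor that every group shared. Cells of each mouse then received I-BET151 (iBET), an inhibitor of the BET family of acetyl-histone readers, at 3.3 µM or DMSO at 5%, together with ovalbumin alone (Ova) or ovalbumin complexed with IgG (immune complexes, IC), for 4 hours. The labels give inhibitor and stimulus as added at the same time, whereas the study's methods place iBET shortly before the stimulus, so the length of exposure to iBET is uncertain. The 4 groups (DMSO Ova and iBET Ova, DMSO IC and iBET IC) held 5 libraries each, all from the same 5 mice. The design asks how iBET changed the transcriptome with each stimulus and how IC changed it against Ova.

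Histones package DNA into nucleosomes, each built from H2A, H2B, H3 and H4, with the linker histone H1 where DNA enters and leaves. Replication-dependent histone genes lie in clusters, lack introns in most cases and are transcribed mainly in S phase, and their mRNA ends in a conserved stem-loop instead of a poly(A) tail. Variant histones such as H3.3, H2A.Z and H1.0 are made outside S phase as well, from polyadenylated mRNA, and some clustered genes can also give a polyadenylated transcript that runs on past the stem-loop. The libraries were made from total RNA, so that mRNA without a poly(A) tail was not selected against by the kit.

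Total counts ranged from 16447491 to 29245150 per library (median 21764663). The ribosomal gene Rn45s took 2.69% to 8.61% of the counts. The dendritic cell marker Itgax (CD11c) was present at 1718 to 2725 CPM and the macrophage marker Csf1r at 485 to 1235 CPM, so the cultures expressed both kinds of marker, and Flt3 was at 0.12 to 4.94 CPM. Neutrophil markers were present at low levels, with S100a8 at 6.85 to 18.4 CPM, S100a9 at 3.50 to 27.1 CPM and 12.5 to 53.9 CPM summed over 8 genes. The sums were 0.999 to 16.0 CPM for 6 erythroid genes, almost all of it from Hbb-bs and Hbb-bt, 0.889 to 2.70 CPM for 5 mast cell and basophil genes and at most 0.50 CPM for 6 lymphocyte genes. In bulk RNA, a change in the share of a cell type and a change per cell cannot be told apart.

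The clustered genes lay mainly on chromosome 13 (54 genes), with 10 on chromosome 3, 3 on chromosome 11 and 1 on chromosome 6. In the GENCODE M21 transcripts (GRCm38, the mm10 build of the deposited counts), a stem-loop of 16 bases was found in 46 clustered genes and in 1 variant gene, H2afx, and in 27 other genes among 141767 transcripts scanned. The sequences below are shown because this element sets apart the mRNA of replication-dependent genes, and capitals mark the stem-loop. H2afx and Hist3h2a are printed because their annotated transcripts run on past it and both rose strongly with iBET, Hist1h2bk and Hist1h4n because their transcripts end shortly after it.
H2afx (chr9:44335235-44335260, plus strand): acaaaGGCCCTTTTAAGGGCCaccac
Hist3h2a (chr11:58955167-58955192, plus strand): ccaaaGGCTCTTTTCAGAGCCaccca
Hist1h2bk (chr13:22036295-22036320, plus strand): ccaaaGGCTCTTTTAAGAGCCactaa
Hist1h4n (chr13:21831793-21831818, minus strand): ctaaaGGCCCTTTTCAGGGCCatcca
The annotated transcript went on for 822 bases after the stem-loop in H2afx and for 1643 bases in Hist3h2a, against 30 in Hist1h2bk and 31 in Hist1h4n. The stem-loop letters were the same in Hist3h2a as in 25 other members, and the 26 genes with them formed the most common form.

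iBET raised the level of histone genes relative to the other genes of a library, with either stimulus. Scaled counts are relative and do not give the amount of RNA per cell. Of the 76 tested members, 52 rose and 0 fell with iBET in Ova-treated cells (edgeR quasi-likelihood test, adjusted p under 0.05), where 27.7% of the 12465 genes tested rose and 28.9% fell. With IC, 44 rose and 0 fell, where 27.1% of all tested genes rose and 29.0% fell. The 44 genes that rose with IC had also risen with Ova, in a comparison with its own control libraries. At an unadjusted p under 0.05, 55 and 47 members passed, counted in either direction, and the share of all genes at that threshold is not given. DESeq2 called 53 and 44 higher and 0 lower, beside 28.3% higher and 29.1% lower of all genes with Ova and 27.9% and 28.9% with IC. With the mouse as a block 63 rose and 1 fell with Ova, beside 33.5% and 35.2% of all genes, and 58 rose and 1 fell with IC, beside 32.6% and 35.4%. The groups did not overlap, with iBET the higher, for 25 members with Ova, beside 18.5% of all tested genes, and for 34 with IC, beside 21.1%. The median log2 fold change of the 76 members was 0.62 with Ova and 0.51 with IC, beside -0.003 and -0.01 over all tested genes. With 4 pairs of gene rows that carried nearly the same counts taken once each, 48 of 72 rose with Ova and 41 of 72 with IC.

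The summed level of the clustered genes, with those 4 pairs taken once, was 8985, 8215, 10826, 10009.5 and 8316 CPM in mice A to E of the DMSO Ova group. In the iBET Ova group it was 13493, 9726, 14971, 16878 and 19126 CPM. Each mouse was higher with iBET, and the iBET library of mouse B fell within the range of the DMSO libraries. This corresponded to 0.842% to 1.16% of all counts with DMSO and Ova and 1.00% to 1.95% with iBET and Ova. Reads shared with further copies may have entered these sums more than once. Under IC the sum was 7721 to 10349 CPM in the DMSO libraries and 11809 to 14758 CPM in the iBET libraries, which did not overlap. The log2 ratio of the group means was 0.68 with Ova and 0.56 with IC. The SD between mice of the iBET Ova group (3553 CPM) was wider than those of the other 3 groups (1126 to 1315 CPM).

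**Figure D1:**
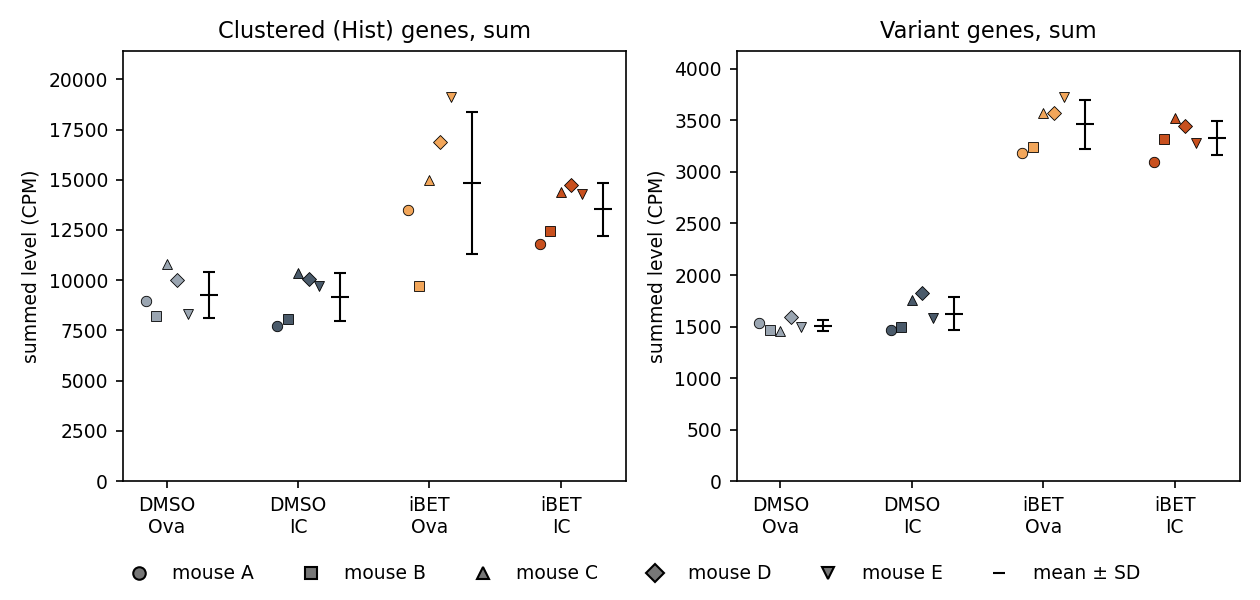
Summed level (CPM, linear axis from 0) of the clustered Hist genes (left) and of the variant genes (right) in each of the 20 libraries, with a symbol for each mouse and the mean ± SD (n = 5) beside each group. The clustered sum overlaps between DMSO Ova and iBET Ova through mouse B at 9726 CPM, and the variant sum is at least 3097 CPM in every iBET library and at most 1824 CPM in every DMSO library.

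The variant genes were summed separately. Their level was 1509.7 ± 54.9 CPM (SD, n = 5) in DMSO Ova and 3461 ± 234 CPM in iBET Ova, and 1624 ± 160.0 CPM in DMSO IC and 3333 ± 164 CPM in iBET IC. The log2 ratio of the means was 1.20 with Ova and 1.04 with IC, and no DMSO library reached an iBET library. Most of this rise came from H3f3b, whose mean was 389 ± 24.4 CPM in DMSO Ova and 1682 ± 133 CPM in iBET Ova. The median log2 fold change of the 9 variant genes, 0.64 with Ova and 0.55 with IC, was close to that of the 67 clustered genes, 0.62 and 0.51. Of the 9 variant genes tested, 8 rose with Ova and 7 with IC, beside 27.7% and 27.1% of all tested genes.

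The H3.3 genes H3f3b and H3f3a encode the same protein, the H3 variant that is placed in chromatin outside replication, and they responded unequally. H3f3b lies at chr11:116021912-116027962, minus strand and H3f3a at chr1:180800832-180813943, minus strand (GENCODE M21). H3f3b was at 411, 352, 388, 381 and 411 CPM in mice A to E with DMSO and Ova and at 1472, 1687, 1781, 1658 and 1812 CPM with iBET and Ova. With IC it was at 342, 370.1, 441, 400.2 and 396 CPM in the DMSO libraries and at 1396, 1617, 1729, 1547 and 1536 CPM in the iBET libraries. Every iBET library was more than 3 times as high as every DMSO library. H3f3b rose 4.33-fold with Ova (log2 fold change 2.11 ± 0.08 SE, adjusted p = 6.49e-14) and 4.02-fold with IC (2.01 ± 0.08, adjusted p = 1.36e-13), the largest change of any member with either stimulus. H3f3a was at 425, 439.8, 321, 394 and 354 CPM with DMSO and Ova and at 563, 520.2, 505, 558 and 551 CPM with iBET and Ova. With IC it was at 448, 467, 486, 564 and 420.1 CPM against 651, 601, 557, 637 and 561 CPM. H3f3a was higher with iBET in 5 of 5 mice, with groups that overlapped only under IC, and it rose 1.39-fold with Ova (adjusted p = 0.000108) and 1.26-fold with IC (adjusted p = 0.00301). The ratio of H3f3b to H3f3a counts within a library, not corrected for length, was 1.02 ± 0.165 in DMSO Ova and 3.13 ± 0.349 in iBET Ova, and 0.823 ± 0.0982 in DMSO IC and 2.62 ± 0.360 in iBET IC.

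The promoters of these genes are shown because members with the same product differed in response. The windows of 300 bases are from RefSeq (GRCm38.p6), 250 bases before to 50 after the start, on the strand of the gene, and capitals mark, on either strand, the box CCAAT, the TATA box with the letters TATAAA, the octamer with the letters ATTTGCAT and the cAMP response element with the letters TGACGTCA.
H3f3b (chr11:116024455-116024754, minus strand): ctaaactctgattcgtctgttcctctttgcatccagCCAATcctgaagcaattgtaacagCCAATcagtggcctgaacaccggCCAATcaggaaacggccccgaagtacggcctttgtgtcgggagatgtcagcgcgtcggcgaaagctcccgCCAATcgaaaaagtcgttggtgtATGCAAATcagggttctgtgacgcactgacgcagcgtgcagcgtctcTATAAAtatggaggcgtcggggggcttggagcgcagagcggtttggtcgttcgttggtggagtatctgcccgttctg
H3f3a (chr1:180813556-180813855, minus strand): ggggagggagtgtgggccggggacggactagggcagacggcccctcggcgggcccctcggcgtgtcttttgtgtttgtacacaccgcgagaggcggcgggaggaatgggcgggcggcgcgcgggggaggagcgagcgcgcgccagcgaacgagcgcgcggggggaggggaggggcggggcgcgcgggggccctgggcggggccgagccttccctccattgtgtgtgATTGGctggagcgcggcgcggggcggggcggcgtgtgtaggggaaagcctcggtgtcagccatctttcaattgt
Both windows lie within the GENCODE spans given above, so the RefSeq starts used for them differ from the outermost GENCODE starts. The H3f3b window held CCAAT 4 times, the octamer 1 time and the TATA box 1 time, and the H3f3a window held CCAAT 1 time and none of the others. Over 1 window per gene, CCAAT was present in 37.9%, the TATA box in 14.2%, the cAMP response element in 1.88% and the octamer in 1.75% of 27025 promoters. A match to these letters is a description of the sequence and does not show a bound factor.

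The other variants were ordered by their change. H1f0, which encodes the linker histone H1.0 found in resting and differentiated cells, was at 70.3, 67.6, 94.6, 106 and 90.6 CPM in mice A to E with DMSO and Ova and at 251, 266, 300.5, 335 and 321 CPM with iBET and Ova. With IC it was at 58.3 to 89.7 CPM with DMSO (median 77.9) and at 209.9 to 260.3 CPM with iBET (median 245). The groups did not overlap with either stimulus, and H1f0 rose 3.44-fold with Ova (log2 fold change 1.78 ± 0.14 SE, adjusted p = 2.01e-09) and 3.26-fold with IC (1.70 ± 0.14, adjusted p = 3.38e-09). H2afx encodes H2A.X, which is phosphorylated around DNA breaks. It was at 64.3 to 92.3 CPM with DMSO and Ova and at 222, 149.6, 257, 259 and 263 CPM with iBET and Ova, where mouse B was lowest. It rose 2.83-fold with Ova (adjusted p = 1.15e-08) and 2.35-fold with IC (adjusted p = 1.49e-07), without overlap. H1fx (H1.X) was low, at 2.70 to 6.69 CPM in the DMSO libraries and 6.402 to 14.5 CPM in the iBET libraries, and rose 2.48-fold and 2.30-fold (adjusted p = 0.000192 and 0.000449).

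H2A.Z, which marks promoters and enhancers, is encoded by H2afz and H2afv. H2afz was at 257 ± 12.3 CPM in DMSO Ova and 399 ± 26.9 CPM in iBET Ova and rose 1.55-fold with Ova (adjusted p = 1.07e-06) and 1.47-fold with IC (adjusted p = 6.32e-06). H2afv was at 21.02 ± 1.93 and 26.1 ± 5.17 CPM in the same groups and rose 1.24-fold with Ova (adjusted p = 0.0280). With IC its log2 fold change was 0.26 (adjusted p = 0.0659, or 0.00689 when the mouse was a block). H2afj, an H2A variant, rose 1.36-fold with Ova and 1.18-fold with IC (adjusted p = 0.000559 and 0.0402), the smallest of the called changes among the variants with IC. H2afy encodes macroH2A1, a large variant found in silent chromatin, and was the only tested variant not higher with iBET. It was at 219, 221, 254, 288 and 272 CPM with DMSO and Ova and at 199.996, 203, 234, 257 and 265 CPM with iBET and Ova. The groups overlapped and its change on the log2 scale was -0.11 under Ova and -0.11 under IC (adjusted p = 0.357 and 0.369). With the mouse as a block, H2afy passed the threshold as lower in both (adjusted p = 0.0265 and 0.0404).

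**Figure D2:**
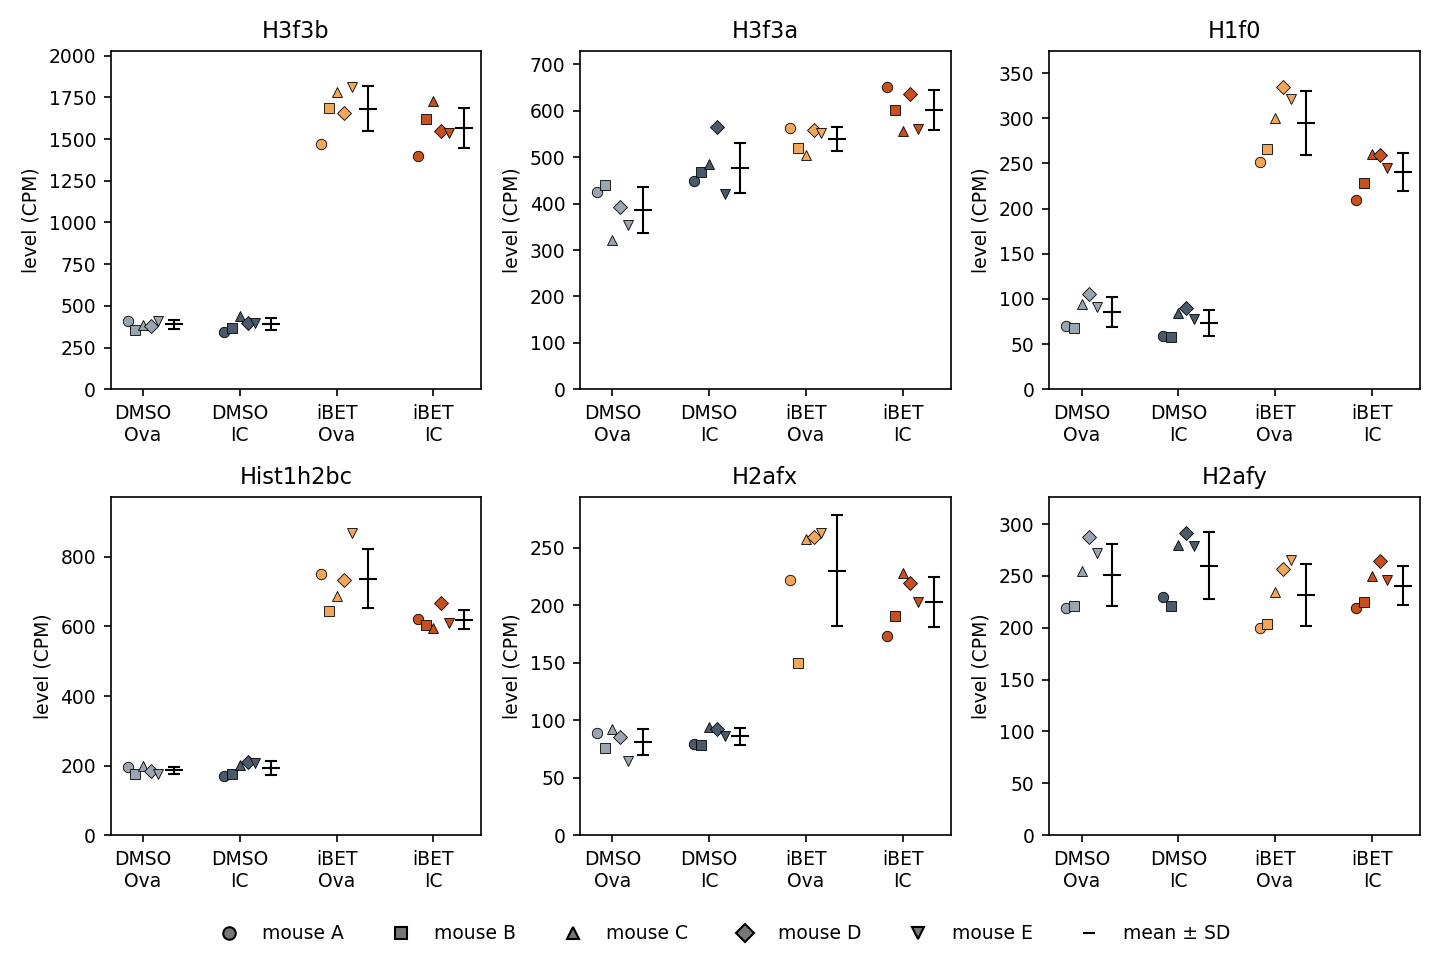
Level (CPM, linear axes from 0) of the H3.3 genes H3f3b and H3f3a, H1f0, Hist1h2bc, H2afx and H2afy in each of the 20 libraries, with a symbol for each mouse and the mean ± SD (n = 5) beside each group. The iBET libraries lie well above the DMSO libraries for H3f3b, H1f0, Hist1h2bc and H2afx, less so for H3f3a, and not for H2afy.

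Among the clustered genes, 44 of 67 rose with Ova and 37 of 67 with IC, beside 27.7% and 27.1% of all tested genes. The families differed in number and size. H2B had the highest median log2 fold change, 0.89 with Ova and 0.82 with IC, and 15 and 14 of 19 genes rose. H4 followed with 0.63 and 0.53, and 11 and 10 of 13 genes rose. H2A was at 0.56 and 0.46, with 11 and 10 of 17 genes, and H1 at 0.49 and 0.41, with 3 of 6 genes for either stimulus (5 of 6 with the mouse as a block). H3 was lowest, at 0.44 and 0.32. With Ova 4 of its 12 genes rose (Hist1h3e, Hist2h3b, Hist2h3c1 and Hist2h3c2), or 33.3%, near the 27.7% of all tested genes. With IC 0 rose (edgeR, 0 also at an unadjusted p under 0.05 and 0 with DESeq2). All 12 H3 genes had a log2 fold change above 0 with either stimulus. With the mouse as a block 8 passed as higher with Ova and 7 with IC, beside 33.5% and 32.6% of all genes. The counts of H2A, H2B and H3 genes take both rows of the 4 pairs with nearly the same counts, Hist2h3c1 and Hist2h3c2 among them. The difference between families was not tested.

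Hist1h2bc (chr13:23684199-23692908, plus strand) was the clustered gene that rose most. It was at 196, 177, 198, 186 and 177 CPM in mice A to E with DMSO and Ova and at 751, 644, 688, 734 and 869 CPM with iBET and Ova. With IC it was at 169 to 212 CPM with DMSO (median 202) and 596 to 666 CPM with iBET (median 609). No iBET library came near the DMSO range, and Hist1h2bc rose 3.95-fold with Ova (log2 fold change 1.98 ± 0.08 SE, adjusted p = 1.97e-13) and 3.21-fold with IC (1.68 ± 0.08, adjusted p = 1.73e-12). The paired rows Hist1h2bq and Hist1h2br, which held the same counts in 20 of 20 libraries, went from 396 ± 51.7 to 817 ± 172 CPM with Ova, a 2.06-fold rise (adjusted p = 5.50e-06). With IC they went from 355 ± 74.2 to 709 ± 44.6 CPM (2.00-fold, adjusted p = 9.30e-06). Hist2h2bb rose 1.56-fold with Ova and 1.92-fold with IC (adjusted p = 2.07e-05 and 1.83e-07), from 93.4 ± 9.23 and 72.8 ± 8.64 CPM. Hist1h2bb did not follow. It was at 89.0, 88.2, 103, 100.02 and 94.7 CPM with DMSO and Ova and at 79.3, 63.8, 100.1, 103 and 132 CPM with iBET and Ova, with a log2 fold change of 0.01 (adjusted p = 0.955), and at -0.21 with IC (adjusted p = 0.209). It was named after its values were seen.

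Among the other families, Hist3h2a was the H2A gene with the largest rise. It was at 34.7, 34.3, 49.96, 45.9 and 40.9 CPM with DMSO and Ova and at 106, 87.8, 118, 135 and 137 CPM with iBET and Ova, a 2.84-fold rise (adjusted p = 4.06e-09). With IC it rose 2.66-fold (adjusted p = 1.05e-08). Reads of Hist3h2a are uncertain to the extent that its annotated exons overlap those of Trim17 on the same strand. Such an overlap was found for 8 members in all, among them Hist2h2aa1, Hist2h3c1, Hist2h2bb, H1fx and Hist1h1e, to which the same limit applies. Hist2h2aa1 and Hist2h2aa2, which carried nearly the same counts, had the highest level per kilobase of exon of all members (1358 and 1507 CPM per kb, mean of the 20 libraries). Of the stretches of 75 bases in their transcripts, 88.9% and 100% also occurred in another gene. Reads may therefore have been counted in both rows, and this rank is uncertain. Hist2h2aa1 was at 652, 603, 579.8, 656 and 559 CPM with DMSO and Ova and 898, 667, 895, 1084 and 1159 CPM with iBET and Ova, without overlap, and rose 1.54-fold (adjusted p = 0.000303) and 1.43-fold with IC (adjusted p = 0.00171).

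Of the linker histone genes, Hist1h1c (H1.2), the most abundant by CPM, went from 488 ± 61.2 to 834 ± 131 CPM with Ova and from 535 ± 91.6 to 799 ± 51.6 CPM with IC, a rise of 1.71-fold and 1.49-fold (adjusted p = 1.76e-05 and 0.000392). Hist1h1a (H1.1) rose 2.13-fold and 2.61-fold (adjusted p = 1.84e-05 and 1.02e-06). Hist1h1t, the testis-specific H1, rose 1.96-fold and 3.15-fold (adjusted p = 0.00110 and 1.87e-05), on 3 to 23 counts per library. The genes Hist1h1b, Hist1h1d and Hist1h1e had log2 fold changes from 0.07 to 0.24 over both stimuli, none past the threshold. With the mouse as a block Hist1h1b (adjusted p = 0.0177 with Ova and 0.00281 with IC) and Hist1h1d (0.0340 and 0.0233) passed as higher, and Hist1h1e did not (0.0720 and 0.319). Of the H4 genes, Hist1h4i rose most, 2.75-fold with Ova and 2.14-fold with IC (adjusted p = 4.92e-06 and 0.000117), and was named after its values were seen. Hist1h4n was at 345, 256, 380.3, 223 and 277 CPM with DMSO and Ova and at 530.3, 350.0, 516, 629 and 703 CPM with iBET and Ova. It rose 1.84-fold with Ova (adjusted p = 0.000784), with overlap through mouse B, and 1.94-fold with IC (adjusted p = 0.000375). Hist2h3c1, whose counts equalled those of Hist2h3c2 in 20 of 20 libraries, rose 1.74-fold with Ova (adjusted p = 0.00107), and with IC its log2 fold change was 0.32 (adjusted p = 0.147, and 0.0368 with the block).

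**Figure D3:**
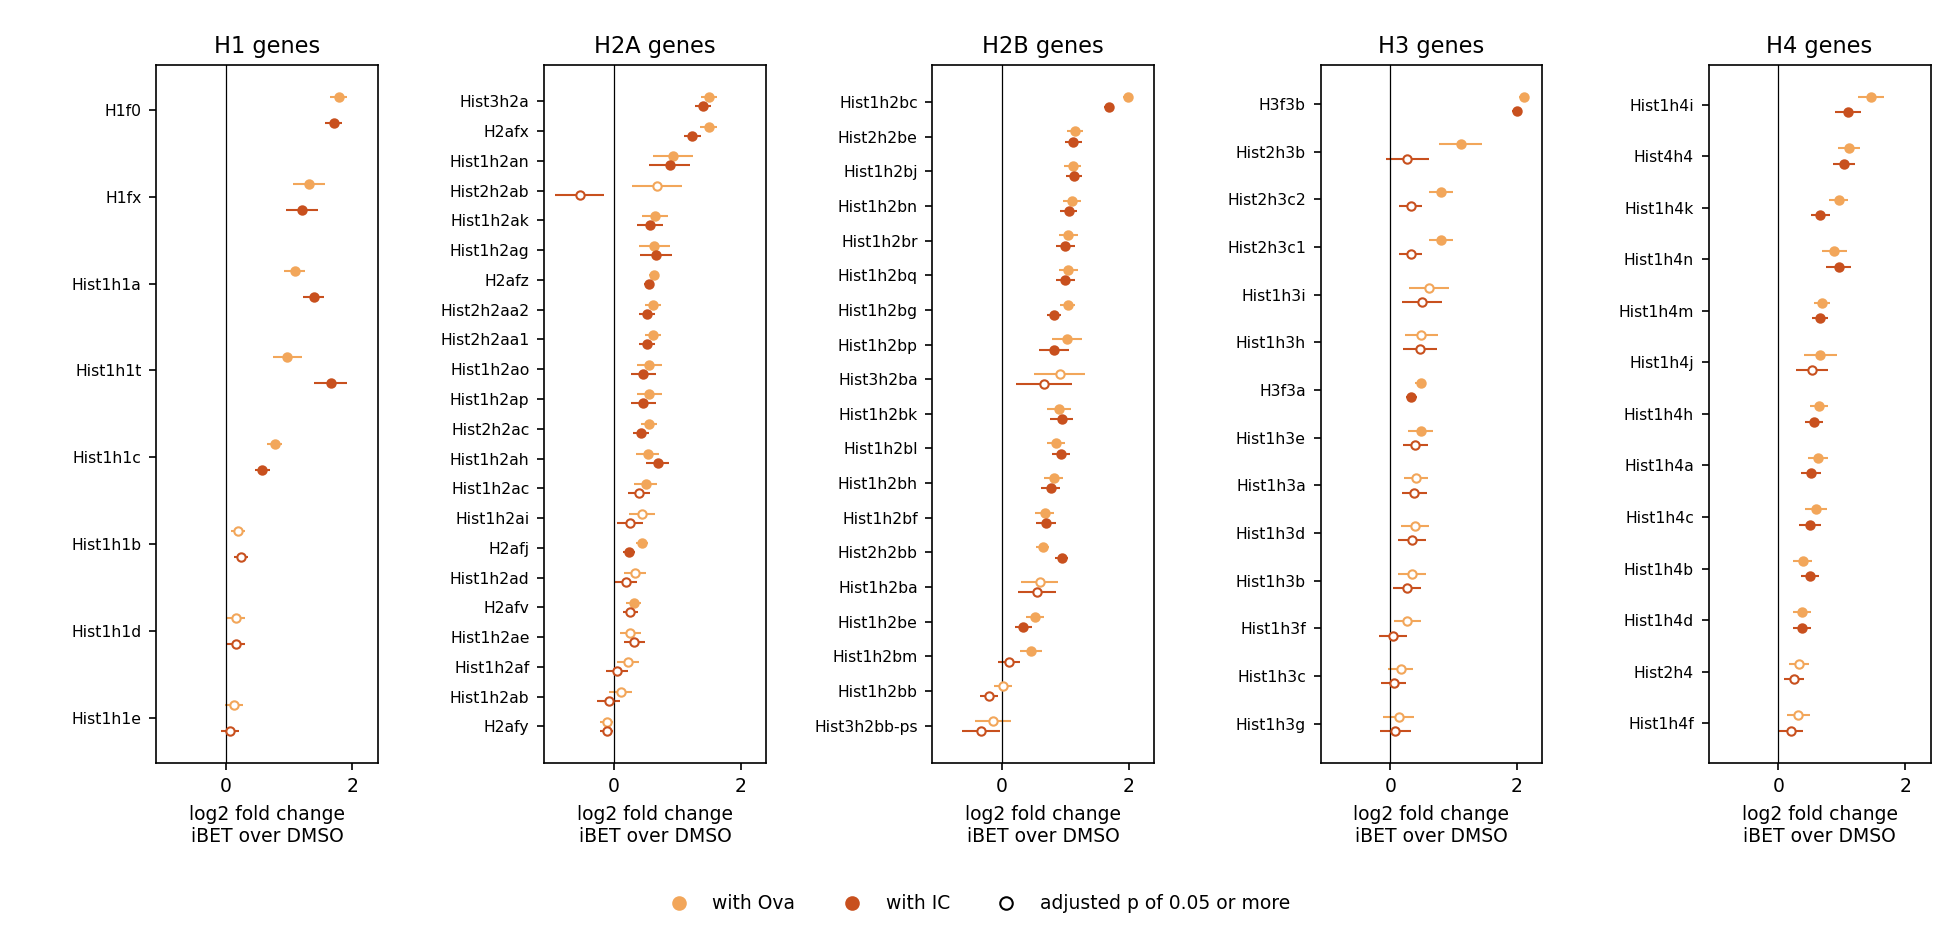
Log2 fold change of iBET over DMSO for the 76 tested members, by family, with Ova (light) and with IC (dark). Bars are the standard error of the fit, and open points have an adjusted p of 0.05 or more. H3f3b stands at 2.11 and 2.01, most H2B genes between 0.5 and 1.2, and most clustered H3 genes are open.

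H2A and H2B genes often lie head to head and share the promoter between them. Of 13 such pairs with starts no more than 500 bases apart, 11 had both genes tested and did not repeat another pair's counts. Among these, 1 held the pseudogene Hist3h2bb-ps. In the other 10, with starts 176 to 302 bases apart, the ratio of H2B to H2A counts within a library, which does not depend on the scaling between libraries, was compared by mouse. These pairs were examined after the values of their members were seen, and the ratios are given with no test. The share of stretches of 75 bases that also occurred in another gene ran from 0% in Hist2h2be to 96.1% in Hist1h2bq. The pairs are therefore not independent of each other. The ratio was higher with iBET in 5 of 5 mice in 8 pairs with Ova and in 7 pairs with IC. The median change of the log2 ratio over the 10 pairs was 0.49 with Ova and 0.50 with IC. For Hist1h2bc and Hist1h2ac the log2 ratio was 1.80 ± 0.17 in DMSO Ova and 3.32 ± 0.35 in iBET Ova, the largest change (1.52). For Hist1h2bk and Hist1h2ah it was 1.98 ± 0.17 and 2.36 ± 0.16 with Ova, and with IC it was 1.98 ± 0.64 and 2.24 ± 0.49, higher with iBET in 2 of 5 mice. For Hist1h2bp and Hist1h2an it was 0.97 ± 0.46 and 0.98 ± 0.23 with Ova. For Hist3h2bb-ps and Hist3h2a the change was opposite, -1.65 with Ova, in 5 of 5 mice. The window before Hist1h2bk, which lies between it and Hist1h2ah, is shown as an example of a shared promoter, marked as above.
Hist1h2bk (chr13:22035571-22035870, plus strand): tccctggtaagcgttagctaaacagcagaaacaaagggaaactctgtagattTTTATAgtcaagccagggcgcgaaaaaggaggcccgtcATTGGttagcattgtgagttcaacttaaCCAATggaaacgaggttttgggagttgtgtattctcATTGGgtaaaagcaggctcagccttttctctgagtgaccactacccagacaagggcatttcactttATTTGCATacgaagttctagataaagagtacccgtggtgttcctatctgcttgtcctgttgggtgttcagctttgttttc
The octamer was found in 13 of the 62 clustered promoters that matched, 7 of 18 for H2A and 6 of 16 for H2B, and in 0 of 6 for H1, 10 for H3 and 12 for H4. CCAAT was found in 53 of the 62, with 3 of 12 for H4, and the TATA box in 35. Head-to-head genes share most of a window, so these are not independent counts.

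**Figure D4:**
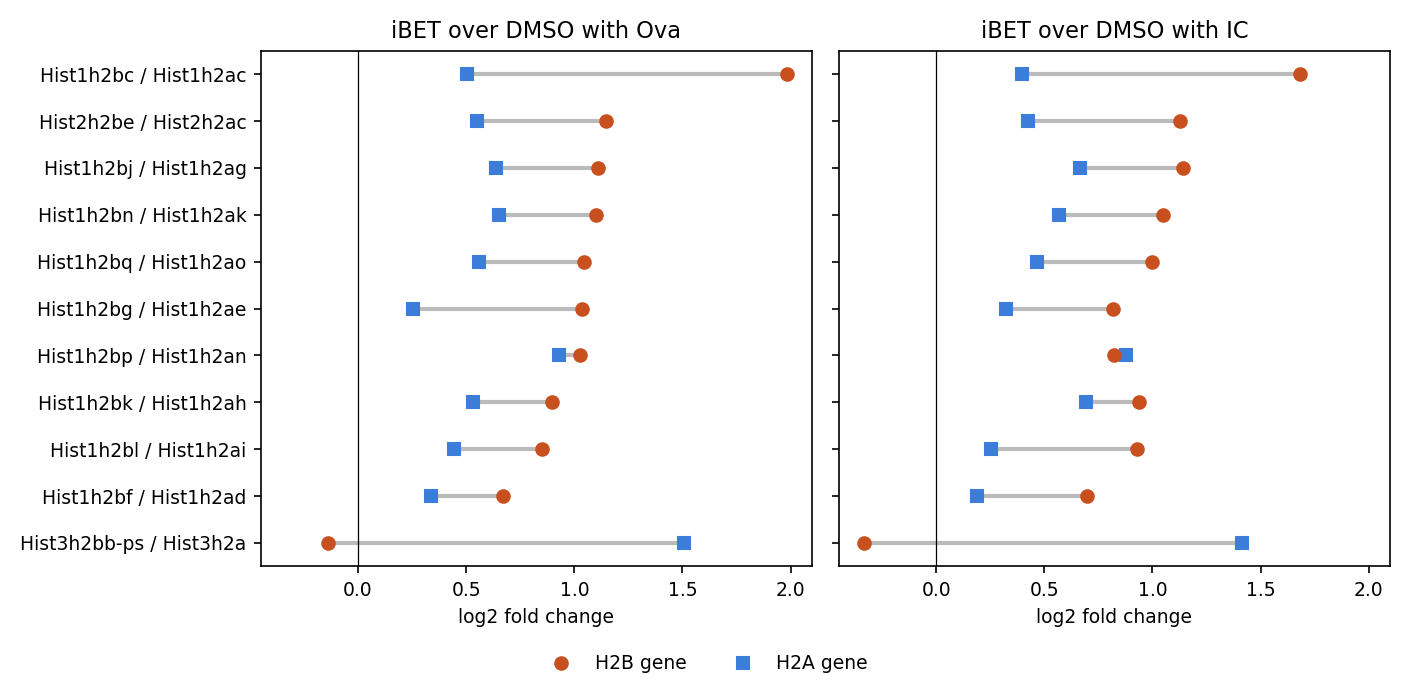
Log2 fold change of iBET over DMSO for each H2B gene (circle) and the H2A gene head to head with it (square), with Ova (left) and with IC (right), for 11 pairs. The H2B gene lies to the right in 10 pairs with Ova and in 9 with IC, and the pair with the pseudogene Hist3h2bb-ps runs the other way.

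The form of the annotated transcript was compared with the response. The counts in this paragraph stand beside the 27.7% of all tested genes that rose with Ova and the 27.1% with IC. Of the tested clustered genes, 23 had a transcript that ended no more than 100 bases after the stem-loop, 15 of which rose with Ova (median log2 fold change 0.56), and 14 with IC (0.46). Another 23 had a transcript that ran on further, 16 of which rose with Ova (0.62) and 11 with IC (0.40). For 7 genes the annotation held over 60 bases outside the coding sequence and no stem-loop, and 6 rose with Ova (1.09) and 5 with IC (1.00). These were Hist1h1a, Hist1h1b, Hist1h2bc, Hist1h2bq, Hist1h2br, Hist2h2be and Hist2h3b. Hist1h2bq and Hist1h2br enter as separate genes with the same counts. A short model, such as that of Hist2h3b (488 bases of exon), may end before a stem-loop. The remaining 14 have models of coding length or are not coding, which hold no stem-loop by construction. Copies within families are nearly alike. A median of 29.5% of the stretches of 75 bases in a member's transcripts also occurred in another gene, over 50% in 28 members and 0 in 14, so counts of single copies are uncertain. Hist1h2bq and Hist1h2br held the same counts in 20 of 20 libraries, so shared reads were probably counted in both rows. Calls of similar copies are then not separate results. Among the 27 tested members with no more than 20% of such stretches shared, 20 rose with Ova and 17 with IC, and among the other 49, 32 and 27. The medians were 0.59 and 0.62 with Ova and 0.42 and 0.52 with IC.

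IC against Ova changed few histone genes. With DMSO, 1 member rose and 5 fell, where 9.59% of all tested genes rose and 10.7% fell. With iBET, 0 rose and 3 fell, where 5.19% rose and 6.63% fell. With the mouse as a block 2 rose and 12 fell with DMSO, beside 18.3% and 19.8% of all genes, and 0 rose and 8 fell with iBET, beside 14.2% and 14.7%. With library size as the only scaling, which moved the median log2 fold change of all genes to -0.13 with DMSO and -0.12 with iBET and the share of higher among called genes from 47.3% to 18.3% and from 43.9% to 13.4%, 0 members rose and 6 fell with DMSO, beside 4.67% and 20.8% of all genes, and 0 rose and 4 fell with iBET, beside 2.51% and 16.3%.

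Hist3h2a was lower with IC in either setting. It was at 34.7, 34.3, 49.96, 45.9 and 40.9 CPM in DMSO Ova and at 26.8, 26.9, 30.0, 33.1 and 31.1 CPM in DMSO IC, without overlap, a log2 fold change of -0.48 ± 0.12 SE (adjusted p = 0.0106). With iBET it was at 106, 87.8, 118, 135 and 137 CPM with Ova and at 68.0, 74.6, 80.7, 89.6 and 81.2 CPM with IC, lower in 5 of 5 mice (-0.57 ± 0.12, adjusted p = 0.00461). Hist4h4 followed the same order, from 44.2 ± 9.07 to 30.0 ± 3.64 CPM with DMSO (-0.56, adjusted p = 0.0274) and from 95.4 ± 24.2 to 61.7 ± 9.94 CPM with iBET (-0.63, adjusted p = 0.0202). Hist1h1a fell from 108 ± 25.0 to 70.1 ± 14.2 CPM with DMSO (-0.62, adjusted p = 0.0145). With iBET its change was -0.32 (adjusted p = 0.239, and 0.00229 with the block). Hist2h2bb fell from 93.4 ± 9.23 to 72.8 ± 8.64 CPM with DMSO (-0.36, adjusted p = 0.0171), and Hist1h1t fell by 1.15 on the log2 scale (adjusted p = 0.00571) on 3 to 9 counts per library in DMSO IC. The member that rose was H3f3a, from 387 ± 49.4 to 477 ± 54.4 CPM (0.30, adjusted p = 0.0193, 5 of 5 mice). Mice A and B, taken alone, gave it a change of 0.07. With iBET, Hist1h2bc fell by 0.25 on the log2 scale (adjusted p = 0.0415). H1f0 was lower with IC in 5 of 5 mice with DMSO (-0.22, adjusted p = 0.286) and with iBET (-0.29, adjusted p = 0.168), and passed with the block (adjusted p = 0.00814 and 0.00132). Leaving out mouse C took the calls with DMSO from 6 to 1 and leaving out mouse E to 2, and with iBET leaving out A, C, D or E took them from 3 to 1.

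**Figure D5:**
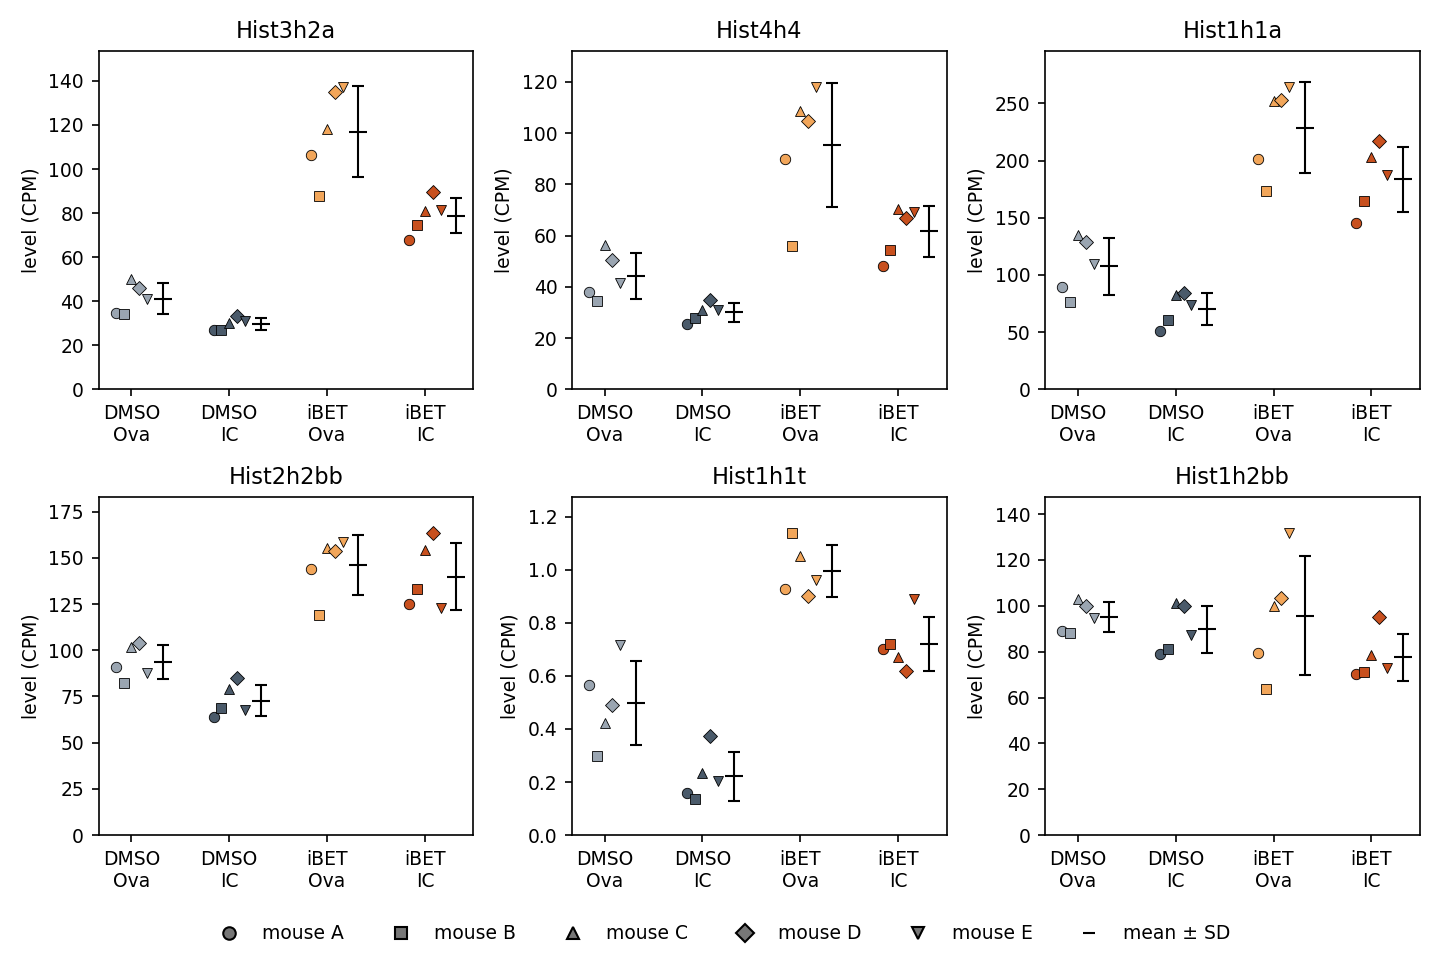
Level (CPM, linear axes from 0) of Hist3h2a, Hist4h4, Hist1h1a, Hist2h2bb, Hist1h1t and Hist1h2bb in each of the 20 libraries, with a symbol for each mouse and the mean ± SD (n = 5) beside each group. Hist3h2a and Hist4h4 are lower with IC than with Ova under DMSO and under iBET, and Hist1h2bb stays between 63.8 and 132 CPM throughout.

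The effect of iBET was compared between the stimuli with an interaction term. Of the 76 members 0 passed the threshold with edgeR and 0 with DESeq2, where 0.0401% and 0.193% of all tested genes did, and with edgeR 2 had an unadjusted p under 0.05. The 3 members of smallest p were Hist1h2bc (-0.30 ± 0.11 SE, unadjusted p = 0.0136, adjusted p = 0.960), Hist2h2ab (-1.22 ± 0.55, unadjusted p = 0.0398) and Hist2h2bb (0.29 ± 0.14, unadjusted p = 0.0535). A difference between the stimuli was not detectable with these libraries.

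Genes that act on histone supply were read alongside, and their counts stand beside the 27.7% of all tested genes that rose and 28.9% that fell with Ova and the 27.1% and 29.0% with IC. Of 20 genes for histone transcription and 3′ end processing, 7 rose and 4 fell with Ova and 8 rose and 4 fell with IC, with medians of 0.05 and 0.04. Slbp, the protein that binds the stem-loop, went from 42.5 to 84.2 CPM with Ova (log2 fold change 0.99 ± 0.09 SE, adjusted p = 2.31e-08) and from 40.6 to 80.7 CPM with IC (0.99 ± 0.09, adjusted p = 2.13e-08), higher in 5 of 5 mice each. Pou2f1, which binds the octamer, rose by 0.58 and 0.52, and Gon4l by 0.39 and 0.43. Zfp473, a zinc finger protein of histone mRNA 3′ processing, fell by 0.75 with Ova and 0.94 with IC, from 1.06 and 1.95 CPM, and the cleavage factors Cpsf3 (-0.52 and -0.50) and Cpsf2 (-0.40 and -0.47) fell. Of 32 histone chaperone and exchange genes, 11 rose and 6 fell with Ova and 8 rose and 7 fell with IC, with medians of 0.13 and 0.06. The largest rises were Ncl (0.86 and 0.87), Ep400 (0.77 and 0.93) and, with Ova, Spty2d1 (0.67), and with IC Ubn1 (0.69), a subunit of the HIRA complex that deposits H3.3. The largest falls were the FACT subunit Ssrp1 (-0.71 and -0.73), Daxx (-0.55 and -0.59), Ruvbl1 (-0.45) with Ova and Hjurp (-0.71) with IC.

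Of 32 genes of DNA replication and the cell cycle, 4 rose, 12 fell and 16 did not pass with Ova, and 4 rose, 17 fell and 11 did not pass with IC, beside the same shares of all genes, with medians of -0.19 and -0.32, and their summed level was lower with iBET in 5 of 5 mice with either stimulus (1272 ± 113 CPM with DMSO and 1205 ± 111 CPM with iBET, both with Ova). Among those that rose were Rrm2 (0.56 and 0.30), Pcna (0.44 and 0.31) and Mcm7 (0.29 and 0.21), which act in nucleotide supply and at the replication fork. Tk1 (-0.71 and -0.97), Plk1 (-0.69 and -0.94) and Aurkb (-0.60 and -0.72) fell most, of which Plk1 and Aurkb are mitotic kinases. With IC against Ova, 1 of the 32 rose and 7 fell with DMSO, beside 9.59% and 10.7% of all genes, and 1 rose and 8 fell with iBET, beside 5.19% and 6.63%. With the mouse as a block these were 3 and 14, beside 18.3% and 19.8%, and 1 and 21, beside 14.2% and 14.7%. In the same fit 10 rose and 16 fell for iBET with Ova, beside 33.5% and 35.2%, and 4 rose and 20 fell for iBET with IC, beside 32.6% and 35.4%. Markers of cell types moved with the groups as well. The summed level of 8 macrophage markers was lower with iBET in 5 of 5 mice with either stimulus (1729 ± 305 CPM in DMSO Ova and 1225 ± 171 CPM in iBET Ova). Of these 8, 1 rose and 4 fell with Ova, beside 27.7% and 28.9% of all genes. With IC 1 rose and 2 fell, beside 27.1% and 29.0%. With the mouse as a block 1 rose and 5 fell with either stimulus. The shares of all genes were then 33.5% and 35.2% with Ova and 32.6% and 35.4% with IC. The sum of 8 dendritic cell markers was higher with iBET in 5 of 5 mice with either stimulus (5865 ± 1141 and 6316 ± 1139 CPM with Ova). It was also higher with IC than with Ova in 5 of 5 mice with DMSO and with iBET. Cd74 and Itgax had the highest levels in this sum (medians of 3245 and 2021 CPM). The median log2 fold change of the 8 with iBET was -0.24 with Ova and -0.22 with IC. Under either stimulus 0 of the 8 dendritic cell markers rose and 1 fell with iBET, beside the same shares of all genes as for the macrophage markers. With the mouse as a block 1 rose and 5 fell with Ova, beside 33.5% and 35.2% of all genes. With IC 2 rose and 5 fell, beside 32.6% and 35.4%. The neutrophil sum was lower with iBET in 5 of 5 mice with either stimulus (28.0 ± 15.2 and 23.2 ± 11.4 CPM with Ova). The part of these markers in the histone results was not tested.

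The responses were also read in mice A and B and in mice C, D and E, a split chosen after the data were seen, and the difference between these sets was not tested. The log2 ratio of summed clustered genes with Ova was 0.43 in A and B and 0.81 in C, D and E, and with IC 0.62 and 0.53. H3f3b, Hist1h2bc and H1f0 had changes of 2.04, 1.90 and 1.90 with Ova in A and B and 2.20, 2.08 and 1.77 in C, D and E.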

How the data were processed

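RNA of BMDCs from 5 mice in 4 groups was sequenced from total RNA with a SMARTer pico input kit. The submitters' processing notes name CASAVA, FastQC, Trim Galore, HISAT2, featureCounts and mm10, and the gene annotation, the use of strand and the treatment of reads that map to several places were not given in the sources used here. The authors deposited raw counts per gene and a further table, deposited signal values that equal these counts divided by 1 size factor per library. Treatment, vehicle and stimulus were taken from the labels. The DMSO content of the iBET groups was not given.

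Counts were tested with edgeR 4.0.16 (R 4.3.3): genes were filtered with filterByExpr, which kept 12465 of 24421, scaled with TMM and fitted with a quasi-likelihood model of group over all 20 libraries, and p-values were adjusted by Benjamini-Hochberg over all genes tested, with a threshold of 0.05. CPM are edgeR's scaled counts, with TMM factors. The scripts were tested on simulated data. Alternatives used DESeq2 1.42.0, limma 3.58.1 on log2 of the deposited signal values plus 1, sva 3.50.0 (3 surrogate variables), other scalings, no filter, the contrast's groups alone and the mouse as a replicate block. Replicate numbers name the mouse, so libraries of a number are paired: deviations from the group means correlated by 0.524 on average between libraries of 1 mouse (0.307 to 0.675 over 30 pairs) and by -0.156 between mice. No library repeated another of its group (in 40 replicate pairs, the lowest chi-square divided by its degrees of freedom was 13.2).

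Named members were those of highest mean level, those with the largest called rises and falls in each comparison, all tested variants, the 3 of smallest interaction p, and few others named as chosen after their values were seen. The members and gene lists were chosen with earlier results of these data known. Stem-loops and shared stretches were read from GENCODE M21 transcripts and promoters from RefSeq (76 members matched). The values of 1 gene of the lists are not reported here.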

Additional observations from a re-analysis of the deposited data

Results flagged for a closer look

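Of 100 groups of 5 libraries examined for a library far from the others, 3 were marked, where chance marks about 1 in 20. H2afv was at 29.47 CPM in mouse D of the iBET IC group, against 23.26 CPM in the nearest library. H2afj was at 25.24 CPM in mouse E of the DMSO Ova group, against 34.61 CPM in the nearest. Hist2h2ab was at 18.07 CPM in mouse E of the iBET IC group, against 9.573 CPM in the nearest. The gap was 0.956, 0.724 and 0.728 of the group's range, above the critical value of 0.71.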

How the results depend on the processing

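In every setting tried, more histone genes were higher than lower with iBET. Lower calls were H2afy with the block and, with Ova, with surrogate variables, H2afy2 with Ova without the filter, and Hist1h2bb with Ova in mice A and B alone. With a fold change of at least 1 on the log2 scale required as well, 17 members passed with Ova, 13 with IC, 1 for IC against Ova in DMSO libraries and 0 in iBET libraries. The share of all genes is not given for this threshold, the surrogate variables, the contrast's groups alone or the subsets of mice. Member counts under these settings therefore have no background to be read against. With the mouse as a replicate block, which follows the pairing of the libraries, IC against Ova gave 14 members with DMSO and 8 with iBET, with edgeR and with DESeq2, and iBET gave 63 members up and 1 down for Ova, 64 in all, and 58 up and 1 down, 59 in all, for IC in edgeR. Surrogate variables gave 15 and 13 for IC against Ova, and a fit of the contrast's groups alone gave 1 with iBET. With mice A and B alone, chosen after the data were seen, 26 members passed for iBET with Ova (25 higher), 2 for IC against Ova under DMSO and 0 under iBET, and with mice C, D and E alone 10 and 10 passed for IC against Ova. Leaving out each mouse gave 38 to 63 members for iBET with Ova, 38 to 40 with IC, 1 to 6 for IC against Ova with DMSO, 1 to 2 with iBET and 0 to 0 for the interaction. The cause was not tested. Of 982 values of named members under alternatives, 884 kept their call, 82 lost it, 16 gained it and 0 changed sign. Among them H2afj with IC lost its call when mouse A, B, C or D was left out, Hist4h4 for IC against Ova when A, C, D or E was, and Hist1h2bc for IC against Ova with iBET when any mouse was.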
